A study of Rattus norvegicus with 12 samples.

Results

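The 10 genes described here encode matricellular and elastic fiber proteins of the extracellular matrix: Fn1, Postn, Tnc, Thbs1, Thbs2, Sparc, Eln, Fbn1, Fbln1 and Mfap5. They were chosen by name, with earlier results of these data known. Each was found as 1 entry in both deposited tables, the first (control and adenine) holding 22132 entries and the other (sham and UUO) 32623. Poly(A) RNA was sequenced from kidneys of 12 male SD rats, 3 per group, 8 weeks old at the start and labelled as wild type. Rats of the adenine group were gavaged daily with 220 mg/kg adenine over 3 weeks, and control rats had saline for the same time. In the UUO (unilateral ureteral obstruction) group the left ureter was tied at its proximal and distal ends, in the sham group the ureter was exposed and not tied, and both were kept for 2 weeks. The 3 rats sequenced per group were drawn from 10.

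Matricellular proteins such as tenascin, thrombospondins, periostin and SPARC sit in the matrix and change how cells attach, migrate and respond to growth factors, rather than bearing load themselves. Elastic fibers are built from an elastin core on a scaffold of fibrillin microfibrils, to which fibulins and microfibril-associated glycoproteins bind, and lysyl oxidases crosslink the elastin. In a healthy adult kidney these proteins lie mainly around vessels and in thin interstitial spaces, and fibronectin, a provisional matrix protein that binds integrins and collagen, is a usual marker of renal fibrosis.

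The values are FPKM, in which fragments are divided by transcript length and sequencing depth. Summed FPKM still differed between groups, at 564972 to 582725 in control and 468389 to 487770 in adenine kidneys. It was 619664 to 630244 in sham and 528811 to 539011 in UUO kidneys. Levels of diseased and undiseased rats are therefore compared with a possible offset. Median-of-ratios scaling lowered the log2 fold changes of all entries by a median of 0.23 in adenine and 0.53 in UUO. Changes are log2 fold changes of FPKM + 0.1 with their standard error (SE) and a Benjamini-Hochberg adjusted p from limma over all entries tested in that table. A gene was called differentially expressed (DEG) when the adjusted p was below 0.05 and the log2 fold change was 2 or more in size. The tables were normalised separately, so control and sham were not tested against each other. The smallest p that an exact permutation test of 3 against 3 rats can give is 0.1, so that test alone could not pass 0.05 for any gene. In whole kidney RNA, more cells of a type and more RNA per cell cannot be told apart.

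Marker sums of several cell types moved with the treatment in both tables. All 6 proximal tubule markers were found, with summed FPKM of 833 to 1819 in control, 65.3 to 317 in adenine, 1175 to 1767 in sham and 101 to 280 in UUO kidneys. Of the 6, 3 were lower DEGs in adenine and 4 in UUO. Cubn and Slc5a2 passed the adjusted p in neither, and mean Slc5a2 was 5.48 FPKM in control and 17.5 in adenine kidneys. Fibroblast markers summed to 64.4 to 102 in control, 522 to 729 in adenine, 65.9 to 76.8 in sham and 1018 to 2385 in UUO kidneys, and 4 of 6 listed fibroblast markers were DEGs in adenine and 6 of 7 in UUO. Macrophage markers summed to 40.8 to 46.0 in control, 984 to 1313 in adenine, 46.8 to 59.0 in sham and 542 to 839 in UUO kidneys. The part of these cells in the changes below was not tested. Control rat 2 stood apart by its podocyte markers, which summed to 30.5 FPKM against 140 and 193 in the other control rats. This rat was the highest control for 6 of the 10 genes. The matching share over all entries was not calculated, so that count shows nothing particular to the 10. Without it 7 of the 10 genes were DEGs in adenine, the same count as with it, but Thbs2 was gained and Mfap5 was lost.

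Promoter sequence was examined because 9 of the 10 genes rose in both models. In the RefSeq promoter table of build GRCr8, 6 of the 10 genes were matched by symbol (Postn, Tnc, Thbs1, Sparc, Fbn1 and Mfap5), and Fn1, Thbs2, Eln and Fbln1 were not matched. For 3 of them the start in the table is the outermost annotated start of the gene, and the 150 bases before it are shown 5′ to 3′ on the strand of the gene. Sparc (chr10:40038817-40038966, minus strand) was the most abundant of the 10 in undiseased kidney, Thbs1 (chr3:125510100-125510249, plus strand) rose least in UUO, and Mfap5 (chr4:157399769-157399918, plus strand) was near the bottom of both undiseased groups. Capitals mark matches on either strand to CAGAC (a SMAD-binding core), GGAATG (bound by TEAD factors), GGGCGG (the GC box), CCAAT and TATAAA.
Sparc: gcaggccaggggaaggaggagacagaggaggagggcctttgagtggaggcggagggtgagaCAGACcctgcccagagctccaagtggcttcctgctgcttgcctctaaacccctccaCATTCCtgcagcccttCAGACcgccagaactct
Thbs1: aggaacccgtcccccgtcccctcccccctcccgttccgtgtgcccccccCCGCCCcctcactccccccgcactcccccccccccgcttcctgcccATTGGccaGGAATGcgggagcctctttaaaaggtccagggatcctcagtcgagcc
Mfap5: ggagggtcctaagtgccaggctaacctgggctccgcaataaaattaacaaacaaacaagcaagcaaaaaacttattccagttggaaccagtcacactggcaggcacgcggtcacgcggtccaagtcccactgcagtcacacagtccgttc

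The Sparc stretch held CAGAC 2 times and GGAATG, read on the opposite strand, while the Thbs1 stretch held GGAATG, the GC box and CCAAT, and no matches overlapped. None of these letters occurred in the Mfap5 stretch. Of all 33469 promoters in the table, 27.8% held CAGAC in the same 150 bases, 7.4% GGAATG, 26% the GC box, 23.5% CCAAT and 8% TATAAA. GC content was 62.0% for Sparc, 71.3% for Thbs1 and 52.0% for Mfap5, against a median of 52.7% over all promoters. These matches are a description of the sequence.

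In undiseased kidney the 10 genes spanned a wide range of levels, and Sparc stood above the rest. Mean FPKM in control kidneys was 185 ± 36.0 for Sparc, 12.2 ± 5.49 for Fn1 and 9.30 ± 3.27 for Thbs1 (SD, n = 3 here and below), and the order went on through Eln at 4.75, Fbn1 at 1.85, Thbs2 at 1.70, Tnc at 1.19, Fbln1 at 0.969 and Postn at 0.717 to Mfap5 at 0.158. In sham kidneys Sparc was again highest at 233 ± 65.1 and Thbs1 followed at 23.5 ± 3.43, with Fn1 at 16.4 ± 2.22, while Mfap5 at 0.0995 and Postn at 0.0811 were lowest. Of the 9 pairs of neighbours in this order, 4 had ranges that did not overlap in control and 5 in sham. Sparc alone made up 78.5% to 88.6% of the summed FPKM of the 10 genes in control and 76.2% to 85.6% in sham kidneys.

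Together the 10 genes took a larger share of all FPKM in each diseased kidney than in any undiseased kidney of its table. Their sum was 0.0344% to 0.0440% of all FPKM in control and 0.223% to 0.289% in adenine kidneys, and 0.0334% to 0.0514% in sham and 0.274% to 0.467% in UUO kidneys. Fn1 and Sparc held most of it. In adenine kidneys Fn1 held 26.2% to 58.5% of it and Sparc 32.3% to 57.8%, whereas in UUO kidneys Sparc held 73.0% to 77.7% and Fn1 7.64% to 11.8%. The plot of these shares shows both patterns rat by rat.

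**Figure D1:**
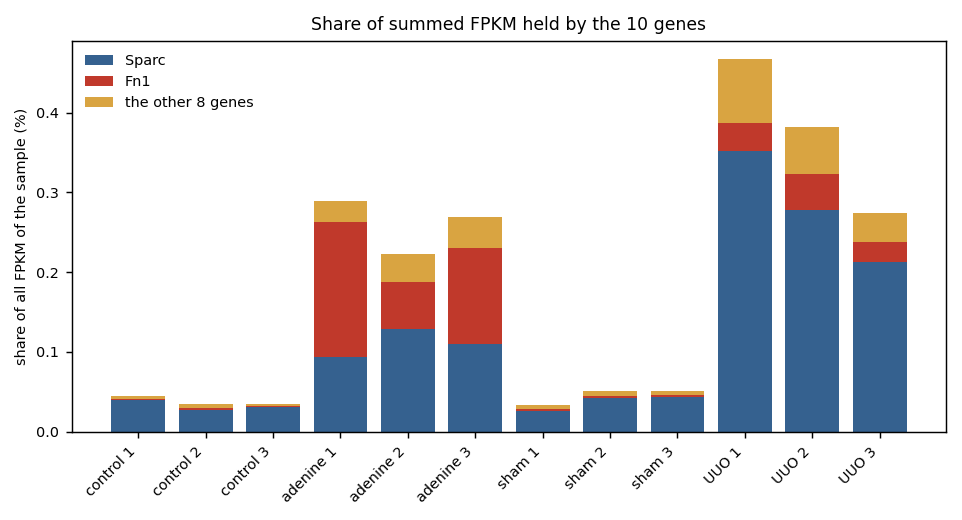
Share of each kidney's summed FPKM, in percent, held by the 10 genes in the 3 rats of each of the 4 groups, with Sparc, Fn1 and the sum of the remaining genes stacked. The 3 adenine kidneys reach 0.223% to 0.289% with a large Fn1 part, and the 3 UUO kidneys reach 0.274% to 0.467% and are mostly Sparc. The groups on the left and right come from separately normalised tables.

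In adenine kidneys 7 of the 10 genes were DEGs and all 7 were higher: Fn1, Postn, Tnc, Thbs1, Fbn1, Fbln1 and Mfap5. Of all 15029 entries tested in that table, 10.7% were DEGs that were higher. Thbs2 and Sparc rose by less than the fold threshold, which makes 9 of 10 past the adjusted p alone (background 39.6%), and Eln did not pass. The 3 adenine rats lay above all 3 control rats for 9 of the 10 genes (background 45%). In UUO kidneys 9 of the 10 genes were DEGs, all higher (background 13.2% of 15043 entries tested), with Thbs1 the exception on fold. All 10 passed the adjusted p alone and rose (background 56.1%), and for all 10 the UUO rats lay above all sham rats (background 60%). Mfap5 in both tables and Postn in the sham and UUO table passed the filter on low values only through the diseased kidneys, so their place in these counts supports nothing. The median log2 fold change of the 10 genes was 2.84 in adenine against 0.30 over all entries tested, and 4.06 in UUO against 0.62. Both medians include Mfap5 and Postn. Because the 10 genes were chosen with earlier results of these data known, these counts and medians only describe them. The distance from the background is no test of the group.

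**Figure D2:**
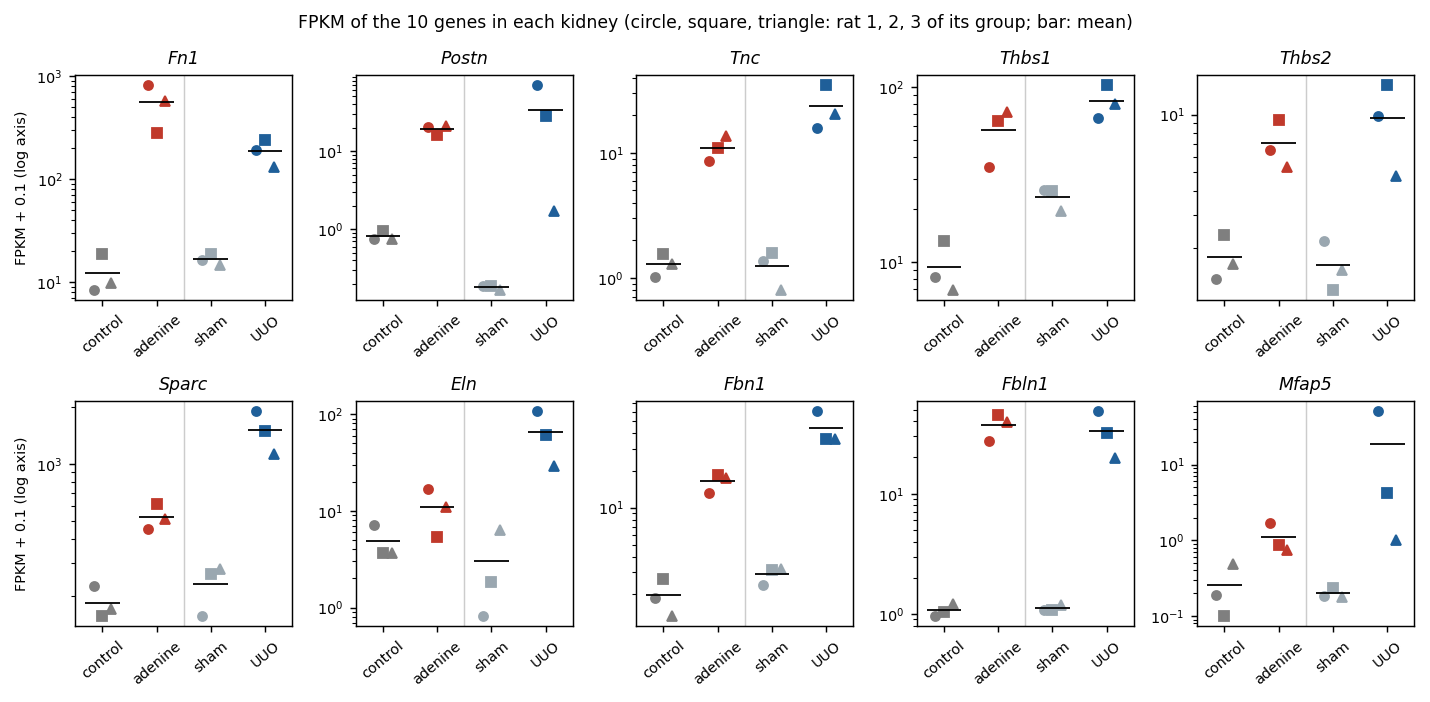
FPKM + 0.1 on a log axis for each of the 10 genes in the 4 groups, with each rat as a point (circle, square and triangle for rats 1, 2 and 3) and the group mean as a bar. For Eln the control and adenine rats overlap, and for the other panels the diseased rats lie above their own controls. The 3 UUO rats lie far apart for Postn (1.60 to 70.5 FPKM) and Mfap5 (0.904 to 51.0 FPKM).

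Fn1, which encodes fibronectin, had the highest log2 fold change of the 10 genes in adenine kidneys. FPKM was 8.29, 18.4 and 9.76 in the control rats and 825, 278 and 568 in the adenine rats, so the lowest adenine rat was well above the highest control. The log2 fold change was 5.46 (SE 0.45, adjusted p = 0.000140), close to 5.11 (SE 0.21) for Fbln1. In adenine rat 2 the order was reversed, with Fn1 at 22.9 and Fbln1 at 46.5 times the control mean. Mean Fn1 of 557 ± 274 FPKM in adenine kidneys was above mean Sparc of 527 ± 79.9 FPKM, though the ranges of the 2 genes overlapped. In sham rats Fn1 was at 16.2, 18.8 and 14.3 FPKM and in UUO rats at 192, 240 and 131 FPKM. The UUO rise of 3.47 on the log2 scale (SE 0.23, adjusted p = 3.65e-05) was smaller than the adenine rise, and that difference passed its own test below. Hepatocytes are the source of plasma fibronectin, and the sum of their 3 markers (Alb, Apoa1 and Ttr) was 0.460 to 0.756 in control, 0.241 to 2.13 in adenine, 0.0567 to 0.331 in sham and 0.632 to 0.932 FPKM in UUO kidneys. Apoa1 rose in UUO by 1.61 on the log2 scale (adjusted p = 0.0144), while Ttr was at the lowest listed value in all 6 kidneys of that table, and the part of hepatocytes was not tested.

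Tnc encodes tenascin-C, a matricellular protein of wounds and developing tissue. Its FPKM was 0.918, 1.46 and 1.19 in control and 8.50, 10.8 and 13.5 in adenine rats, with no overlap. Sham rats had 1.26, 1.48 and 0.703 FPKM and UUO rats 15.6, 34.9 and 20.4 FPKM, again without overlap. Tnc rose in both models, by a log2 fold change of 3.10 (SE 0.24, adjusted p = 0.000112) in adenine and 4.23 (SE 0.37, adjusted p = 9.84e-05) in UUO. The log2 ratio of Tnc to Fn1 within a kidney averaged -3.18 in control, -5.55 in adenine, -3.77 in sham and -3.02 in UUO kidneys. The adenine and UUO changes in this ratio had exact permutation p = 0.1, the smallest possible, and p = 0.3 (two-sided).

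Postn encodes periostin, which binds collagen and integrins and is made by activated fibroblasts. In adenine rats it was uniform, at 20.1, 15.8 and 21.0 FPKM against 0.645, 0.847 and 0.659 FPKM in control rats, and its log2 fold change was 4.55 (SE 0.18, adjusted p = 2.48e-05). In UUO rats it was the most uneven of the 10 genes after Mfap5, at 70.5, 27.7 and 1.60 FPKM against 0.0855, 0.0902 and 0.0678 FPKM in sham rats. UUO rat 3 was still above every sham rat. The log2 fold change in UUO was 6.37 with an SE of 1.26 (adjusted p = 0.00357), and a fold against sham levels this far below the filter depends on the added 0.1.

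Thbs1 and Thbs2 encode thrombospondins, which bind cells and matrix, and thrombospondin-1 can activate latent TGF-β. Thbs1 was at 8.07, 13.003 and 6.82 FPKM in control and 35.0, 64.2 and 71.9 FPKM in adenine rats, and it rose by 2.59 on the log2 scale (SE 0.34, adjusted p = 0.000813). It was at 25.7, 25.3 and 19.6 FPKM in sham and 66.5, 103 and 80.5 FPKM in UUO rats, and its rise of 1.81 (SE 0.18, adjusted p = 0.000187) was the smallest of the 10 in that table. Both sets of rats were apart from their controls. Platelets carry thrombospondin-1, and of their markers Gp9 was at or below 0.352 FPKM in all kidneys of both tables and Ppbp, listed in the sham and UUO table only, was at or below 0.352 FPKM there. Pf4 rose in both models, by log2 fold changes of 4.28 (adjusted p = 0.000145) in adenine and 2.38 (adjusted p = 0.00147) in UUO, while Itga2b fell in both, at -1.75 (adjusted p = 0.000219) and -2.12 (adjusted p = 0.000700). The sum of the list was 7.13 to 10.7 FPKM in control, 50.4 to 52.9 in adenine, 7.57 to 9.68 in sham and 12.02 to 21.9 in UUO kidneys, and the part of platelets was not tested.

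Thbs2 lay at 1.28, 2.26 and 1.55 FPKM in control and 6.46, 9.24 and 5.20 FPKM in adenine rats. Its log2 fold change of 1.97 (SE 0.29, adjusted p = 0.00131) sat just under the fold threshold, and it crossed that threshold under 6 of 17 alternative settings. In sham rats it was at 2.08, 1.12 and 1.45 FPKM and in UUO rats at 9.78, 14.2 and 4.66 FPKM, a log2 fold change of 2.45 (SE 0.43, adjusted p = 0.00198). With median-of-ratios scaling the UUO value was 1.93, under the threshold. Thbs2 therefore rose in both models, and its call as a DEG turned on small shifts in either. The log2 ratio of Thbs2 to Thbs1 changed by -0.62 in adenine and 0.64 in UUO, each with exact permutation p = 0.3.

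Sparc encodes osteonectin, a collagen-binding matricellular protein that is needed for collagen fibril assembly. It was at 226, 157 and 171 FPKM in control and 455, 613 and 512 FPKM in adenine rats. Its log2 fold change of 1.52 (SE 0.18, adjusted p = 0.000581) was below that of all the others except Eln, and its mean was 2.85 times the control mean. In the other table it was at 158, 263 and 277 FPKM in sham and 1895, 1491 and 1124 FPKM in UUO rats, a log2 fold change of 2.70 (SE 0.27, adjusted p = 0.000180). The diseased rats were above the undiseased rats in both tables. In UUO kidneys mean Sparc was 1503 ± 386 FPKM, higher than 99.8% of the entries tested in that table. The log2 ratio of Postn to Sparc within a kidney changed by 3.03 in adenine and 3.67 in UUO. Both had exact permutation p = 0.1, the smallest possible. Postn in sham rats was at or below 0.0902 FPKM, under the added 0.1, so the UUO change depends on that addition and supports nothing. The ratio in UUO rat 3 was -9.37, near the -9.73 to -10.7 of the sham rats.

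Eln, the gene of the elastin core, separated the models most. Control rats had 7.09, 3.57 and 3.57 FPKM and adenine rats 16.7, 5.22 and 10.97 FPKM, so adenine rat 2 lay below control rat 1. The log2 fold change in adenine was 1.12 (SE 0.46, adjusted p = 0.0757, exact permutation p = 0.2) and did not pass. It did pass the adjusted p without control rat 1 (log2 fold change 1.44, adjusted p = 0.0461) or without adenine rat 2 (1.57, adjusted p = 0.0153). With any rat left out, the adenine log2 fold change was 0.74 to 1.57 and the limma adjusted p 0.0153 to 0.200. Sham rats had 0.718, 1.76 and 6.30 FPKM and UUO rats 107, 60.6 and 29.3 FPKM, without overlap. The UUO log2 fold change was 4.75 (SE 0.79, adjusted p = 0.00163), and it was 4.06 to 5.55 when any rat was left out.

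Fbn1 encodes fibrillin-1, the main microfibril protein and a store of latent TGF-β complexes. It was at 1.77, 2.56 and 1.23 FPKM in control and 13.1, 18.3 and 17.4 FPKM in adenine rats, a log2 fold change of 3.11 (SE 0.28, adjusted p = 0.000184). It was at 2.25, 3.04 and 3.08 FPKM in sham and 60.5, 35.6 and 35.6 FPKM in UUO rats, a log2 fold change of 3.89 (SE 0.24, adjusted p = 3.13e-05). Fbn1 thus rose in both models, with no overlap between diseased and undiseased rats. Relative to Fbn1, Eln moved by -1.995 on the log2 scale in adenine (exact permutation p = 0.1) and by 0.86 in UUO (exact permutation p = 0.4). In control rats the ratio favoured Eln, and in adenine rats 1 of 3 did.

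Fbln1, which encodes fibulin-1, a protein of elastic fibers and basement membranes, was tightly held in undiseased kidney and rose in both models. Control rats had 0.861, 0.945 and 1.10 FPKM and adenine rats 27.6, 45.1 and 39.7 FPKM. Sham rats had 0.986, 0.987 and 1.08 FPKM and UUO rats 48.5, 32.1 and 19.7 FPKM. The log2 fold changes were 5.11 (SE 0.21, adjusted p = 2.48e-05) and 4.81 (SE 0.31, adjusted p = 3.53e-05), and every diseased rat was far above every undiseased rat of its table. By mean FPKM, Fbln1 moved from 0.969 to 37.4 in the adenine comparison and from 1.02 to 33.4 in the UUO comparison, 38.6 and 32.8 times the mean of the undiseased group.

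Mfap5 encodes a microfibril-associated glycoprotein that binds fibrillin, and it was the least expressed of the 10 in control and adenine kidneys. Control rats had 0.0919, 0 and 0.381 FPKM and adenine rats 1.61, 0.765 and 0.647 FPKM. The groups did not overlap, but the log2 fold change of 2.30 (SE 0.64, adjusted p = 0.0188) was lost without control rat 1 (2.24, adjusted p = 0.0525), and it fell under the fold threshold without control rat 2 (1.77). Sham rats had 0.0851, 0.136 and 0.0777 FPKM and UUO rats 51.0, 4.07 and 0.904 FPKM, a log2 fold change of 4.92 (SE 1.30, adjusted p = 0.0126). With no filter on low values its adjusted p in UUO was 0.0836, and with quantile normalization 0.0521. Mfap5 was thus higher in each diseased rat than in any undiseased rat of its table, with the widest spread of the 10 genes in UUO.

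**Figure D3:**
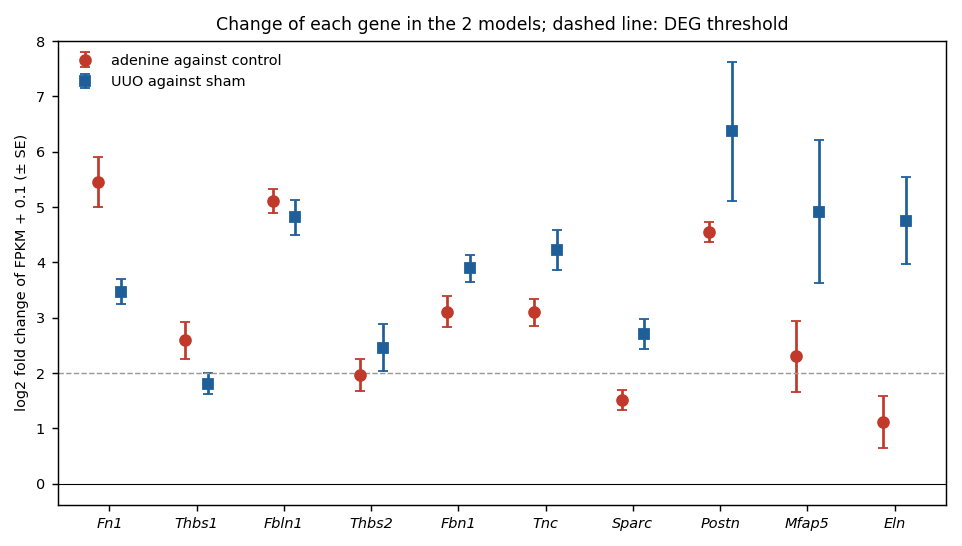
Log2 fold change of FPKM + 0.1 with its SE for adenine against control and UUO against sham, for the 10 genes in the order of the difference between the models, with the DEG threshold of 2 dashed. Fn1 is higher in the adenine comparison (5.46 against 3.47), and Eln is furthest apart in the other direction (1.12 against 4.75). The bars of Postn and Mfap5 in UUO are the widest.

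Whether the models differed was tested for each gene as the difference of its log2 fold changes. Of the 10 genes 3 passed, against 27% of the 13486 genes tested, so the share was close to the background. Fn1 was lower in UUO by -1.99 (SE 0.51, 95% interval -3.08 to -0.90, adjusted p = 0.0123). Sparc was higher in UUO by 1.18 (SE 0.33, interval 0.48 to 1.89, adjusted p = 0.0183), and Eln by 3.64 (SE 0.92, interval 1.67 to 5.61, adjusted p = 0.0115). Only Eln also differed by at least 2, as 2.88% of the genes tested did. Fn1 and Eln passed under all 21 alternatives run, and Sparc under 18 of them.

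The other genes could not be told apart between the models by this test, and their intervals show what sizes remain possible. For Fbln1 the difference was -0.30 (interval -1.11 to 0.51), for Thbs2 0.48 (-0.62 to 1.59), for Fbn1 0.78 (-0.01 to 1.58) and for Thbs1 -0.78 (-1.61 to 0.05). Tnc differed by 1.13 (interval 0.19 to 2.07, adjusted p = 0.0703). Postn at 1.82 (interval -0.91 to 4.56) and Mfap5 at 2.62 (-0.50 to 5.73) had intervals of several log2 units.

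Within the UUO group the 3 rats differed in a shared way. UUO rat 3 was the lowest for 7 of the 10 genes (Fn1, Postn, Thbs2, Sparc, Eln, Fbln1 and Mfap5), as it was for 43.8% of all higher DEGs in UUO. Rat 1 was the highest and rat 3 the lowest for Postn, Sparc, Eln, Fbln1 and Mfap5, 5 of 10 against 23.1% of higher DEGs. The highest UUO rat was 44.0 times the lowest for Postn and 56.4 times for Mfap5, and a ratio of 10 or more was seen in 0.960% of higher DEGs. For Eln it was 3.67 and for Thbs2 3.05, and the median over all higher DEGs was 1.48. Tnc and Thbs1 had their lowest UUO value in rat 1 and their highest in rat 2. In adenine kidneys the highest ratio of this kind was 3.19, for Eln.

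The summed fibroblast markers were highest in UUO rat 1 and lowest in rat 3 as well, at 2385, 1402 and 1018 FPKM. Of the 7 markers, Col1a1, Col1a2, Col3a1 and Lum had this pattern, Lum at 51.6, 16.7 and 2.73 FPKM. The other 3 did not, with Pdgfra at 31.6, 28.8 and 42.3 FPKM, Pdgfrb at 29.1, 30.6 and 30.5 FPKM and Dcn at 497, 404 and 409 FPKM. Smooth muscle and myofibroblast markers summed to 734, 1604 and 664 FPKM, highest in rat 2, where Tnc, Thbs1, Thbs2 and Fn1 were also highest. Acta2, Tagln, Myh11 and Cnn1 were each highest in rat 2, while Des was highest in rat 1, at 53.4, 42.3 and 25.0 FPKM. Urothelial markers, near 0 in sham kidneys at 0.206 to 1.10 FPKM, summed to 117, 62.1 and 110 FPKM in the 3 UUO kidneys. The part of these cells in the spread was not tested. Without UUO rat 3, 7 of the 8 genes that still passed the filter were DEGs, and the log2 fold change was 5.24 for Eln, 5.15 for Fbln1 and 3.71 for Fn1. Postn and Mfap5 could not be tested with any UUO rat left out, since the filter asks for 3 rats.

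**Figure D4:**
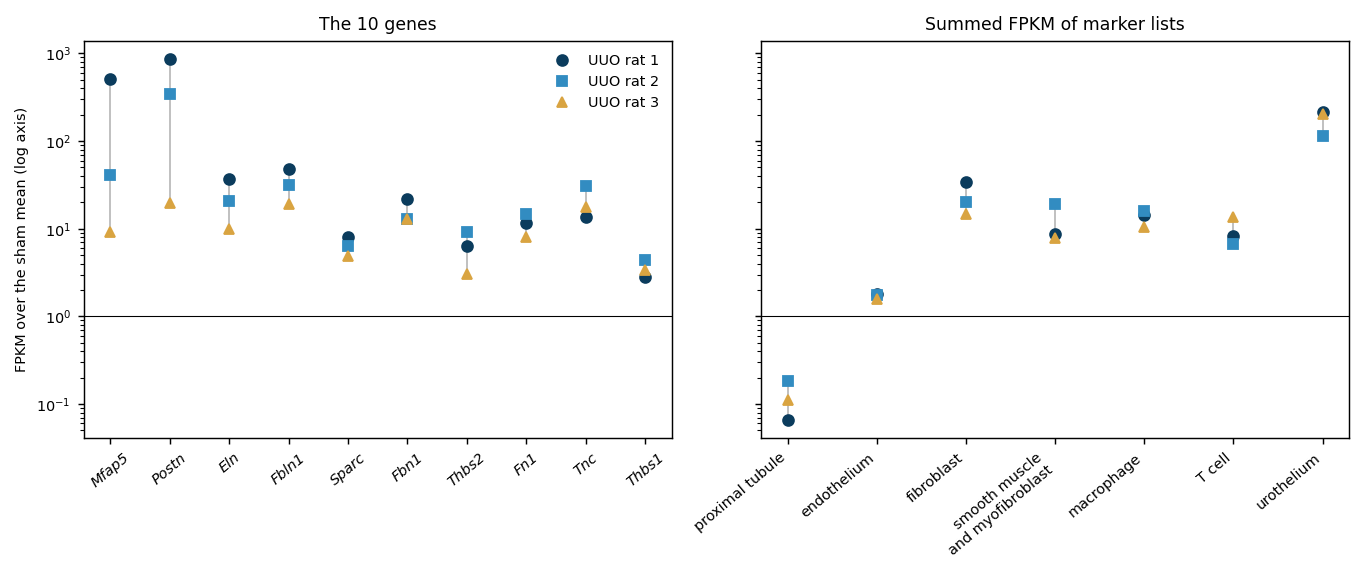
FPKM in each UUO rat over the sham mean on a log axis, for the 10 genes on the left and for summed FPKM of marker lists on the right, with the line at 1 standing for the sham mean. Rat 1 is highest and rat 3 lowest for Mfap5, Postn, Eln, Fbln1 and Sparc and for the summed fibroblast markers. The summed smooth muscle and myofibroblast markers are highest in rat 2.

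The genes around the 10 were described by lists, each to be read against the share of all entries tested that rose by adjusted p (39.6% in adenine and 56.1% in UUO) or were higher DEGs (10.7% and 13.2%). Some listed genes had all undiseased kidneys under 0.5 FPKM and passed the filter only through the diseased kidneys, and their calls support nothing. Of 15 other matricellular genes tested in adenine, 7 rose and 2 fell by adjusted p, with 3 higher and 1 lower DEG, and the median log2 fold change was 0.98. Of 14 tested in UUO, 8 rose and 1 fell, with 7 higher and 1 lower DEG and a median of 1.97. Of the higher DEGs, Comp and Ccn5 in adenine and Ccn5 and Thbs3 in UUO passed the filter only through the diseased kidneys, which leaves 1 and 5. Spp1, which encodes osteopontin, was highest in both, with log2 fold changes of 6.42 (adjusted p = 0.00103) and 5.06 (adjusted p = 5.62e-05). Control rat 2 had 552 FPKM of Spp1 against 49.5 and 56.2 in the other control rats. Spock1, a matricellular proteoglycan gene, was the lowest and the lower DEG in both, at -2.74 (adjusted p = 0.00516) and -2.82 (adjusted p = 0.000548). With a pseudocount of 1 it was no DEG in either, at -0.90 and -0.85.

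Among 19 other elastic fiber and microfibril genes tested in each table, 13 rose and 2 fell in adenine (6 higher DEGs, median 1.497) and 18 rose in UUO (10 higher DEGs, median 2.34). Mfap4 and Mmrn1 in adenine and Fbln7, Hmcn1 and Mmrn1 in UUO were among the higher DEGs only through the diseased kidneys. Mfap4, a microfibril-binding protein gene, had the highest fitted value in adenine at 3.99, against control levels of 0.349 FPKM or less, and Adamtsl2, a gene of the microfibril-associated ADAMTS-like proteins, was lowest at -1.25 (adjusted p = 0.0184). Ltbp2, a gene of the latent TGF-β binding protein family, was highest in UUO at 4.25 (adjusted p = 4.74e-05). Efemp1 was the gene that did not pass there, at a log2 fold change of 0.0036 (adjusted p = 0.990).

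All 5 lysyl oxidase genes, whose enzymes crosslink elastin and collagen, rose in both models. In adenine 4 were DEGs, with a median of 2.95 and a range from 1.16 for Loxl3 (adjusted p = 0.00265) to 3.38 for Loxl2 (adjusted p = 2.74e-05). Loxl4, 1 of these DEGs, passed the filter only through the adenine kidneys. The median of 2.95 is its own value, so neither its call nor that median supports anything. In UUO all 5 were DEGs, with a median of 3.53 and a range from 2.04 for Loxl3 (adjusted p = 0.000697) to 4.63 for Lox (adjusted p = 2.64e-05). Thus the crosslinking genes other than Loxl4 rose in adenine kidneys too, where Eln itself did not pass the test. A link with Eln was not tested. Of 5 genes tested in the list of upstream ligands, all rose in both models, with 4 DEGs in adenine and 5 in UUO. Among them Bmp1, which encodes a protease rather than a ligand, was a DEG in both. Its values were also the list medians, 2.26 in adenine and 2.90 in UUO. Tgfb1 was highest in adenine at 3.63 (adjusted p = 2.28e-05) and Tgfb3 in UUO at 3.93 (adjusted p = 0.000371), while the lowest were Tgfb3 in adenine at 1.75 and Pdgfb in UUO at 2.33.

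Of 7 tested genes of elastin-degrading proteases, 6 rose in adenine, all as DEGs, with a median of 4.35, and 6 rose and 1 fell in UUO, with 5 higher DEGs and a median of 3.12. Mmp12, macrophage elastase, was the highest in both, at 8.94 in adenine and 4.91 (adjusted p = 0.000103) in UUO. Its FPKM was 0.496, 0.195 and 0.339 in control and 229, 164 and 241 in adenine rats, so it passed the filter there only through the adenine kidneys and its fold depends on the added 0.1. Ctsl did not pass in adenine (-0.27, adjusted p = 0.146), and Mmp9, a gelatinase gene, fell by 1.27 on the log2 scale in UUO (adjusted p = 0.0306). Macrophage marker sums rose in both models, as given above, also where Mmp9 fell and Ctsl did not pass. The part of macrophages was not tested.

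Receptors for the 10 proteins had lower medians than the protease, ligand and crosslinking lists. Some of these medians include genes that passed the filter only through the diseased kidneys. Of 15 integrin, syndecan and other receptor genes tested, 10 rose and 1 fell in adenine (5 higher DEGs, median 1.27), and 13 rose and 1 fell in UUO (5 higher DEGs, median 1.30). Itga4 and Itgb3 were among the higher DEGs of both models only through the diseased kidneys. Sdc1, a syndecan that binds fibronectin and other heparin-binding matrix proteins, was highest in both, at 4.33 (adjusted p = 4.77e-05) and 3.69 (adjusted p = 1.16e-05). Itgb8, an integrin chain, was lowest in both, at -1.66 (adjusted p = 0.0274) and -1.44 (adjusted p = 0.0227). Tnxb, Mfap1a and Cd36 were not matched in either table. The plot of the lists shows each gene tested.

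**Figure D5:**
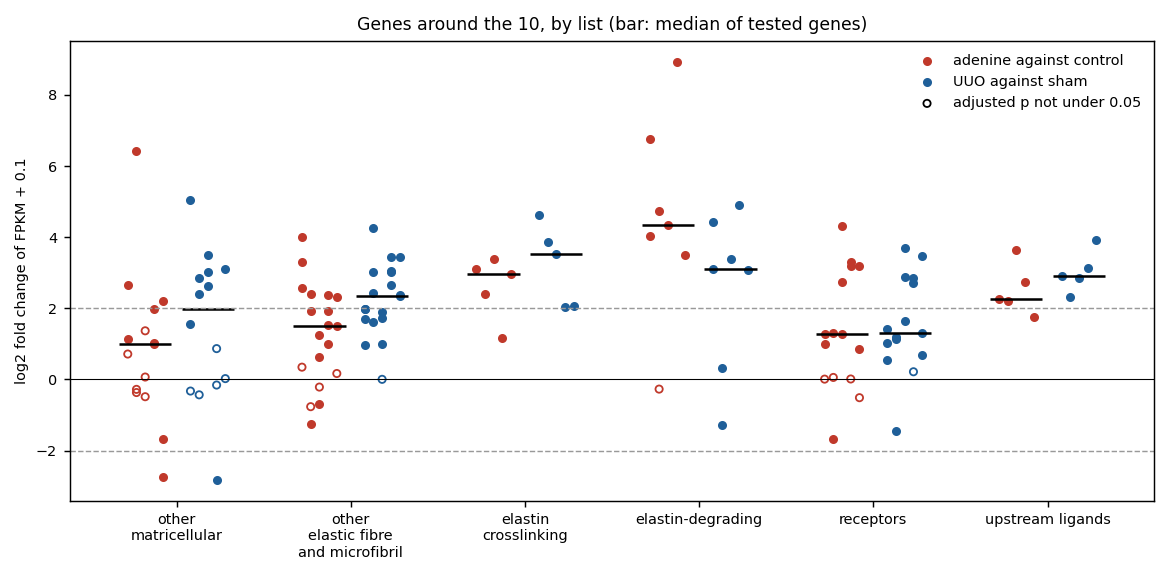
Log2 fold change of FPKM + 0.1 for each tested gene of the 6 lists, in adenine (red) and UUO (blue), with open circles for an adjusted p that was not under 0.05, a bar at the list's median and dashed lines at the DEG thresholds. Elastin crosslinking genes lie above 1 in both models. Mmp12 in adenine is the highest point at 8.94, and Spock1 in UUO is the lowest at -2.82.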

How the data were processed

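Kidney poly(A) RNA of 12 rats was analysed, and samples were grouped by their labels. The authors deposited FPKM values per gene in 2 tables, split by model and normalised separately. The submitters' processing notes name cutadapt 1.9, HISAT2 2.0.4, StringTie 1.3.4d, edgeR and DESeq2, and the genome build is not given in the sources used here. Read counts were not used here, so the study's DESeq2 test was replaced by limma, and depth is unknown: too few low values shared a ratio between samples (0.323% to 5.51%) to give relative depth, and no counting error was calculated. The 3 rats per group set the precision. They are different animals, and every per-sample column was used.

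Entries that reached 0.5 FPKM in 3 or more of the 6 samples were fitted as log2(FPKM + 0.1) with limma 3.58.1 in R 4.3.3 (eBayes, trended prior variance), each table by itself, with Benjamini-Hochberg adjustment over all entries tested. Added to FPKM, 0.1 understates the change of low genes. The difference between the models was divided by the root of the summed squared SEs and referred to a t distribution with both fits' degrees of freedom added, adjusted over symbols listed a single time and tested in both tables. Within-kidney ratios were compared by two-sided exact permutation tests. The fit was tested on simulated data.

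The 10 genes and all lists were chosen with earlier results of these data known. Besides the 10 genes, the highest and lowest tested gene of each list and any lower DEG are named, and Fbln5, Adamtsl2, Mmp9 and Ccn2 were compared between the models after their values were seen. The deviations of same-numbered rats were weakly correlated, at -0.12 to -0.05 in the first table and 0.05 to 0.11 in the second. Different-numbered rats of the second had -0.08 to 0.02. Alternatives covered the pseudocount, filter, scaling, trend, a block and each rat left out. Promoter sequences came from RefSeq (GRCr8). Figures were drawn with matplotlib in Python.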

Additional observations from a re-analysis of the deposited data

Results flagged for a closer look

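Among the 10 genes, 3 changed to a different degree in the models by the test of the difference itself. Of all 13486 genes tested 27% did, so the count is close to the background. The log2 fold change in UUO less that in adenine was -1.99 for Fn1, 1.18 for Sparc and 3.64 for Eln, as described in the report. Of the surrounding genes compared after their values were seen, the difference was 2.85 for Adamtsl2 (adjusted p = 0.00410), 2.40 for Fbln5 (adjusted p = 7.39e-05), -6.01 for Mmp9 (adjusted p = 0.00106) and 2.67 for Ccn2 (adjusted p = 0.000690). Groups of 3 rats were too small to test for a stray sample.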

How the results depend on the processing

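The log2 fold changes of all 10 genes stayed above 0 under every alternative that could be fitted. Median-of-ratios scaling lowered the log2 fold changes of all entries by a median of 0.23 in adenine and 0.53 in UUO. The count of DEGs among the 10 genes was 6 to 9 in adenine and 7 to 10 in UUO over 17 alternatives, 6 to 7 and 7 to 9 when a rat was left out. Mfap5 went untested when any adenine or UUO rat was left out, and Postn when any UUO rat was. The count of genes that differed between the models was 3 to 4 when a rat was left out, 2 with no filter or median-of-ratios scaling, and 5 with a pseudocount of 1. The number of all DEGs was 1320 and 1465 with that pseudocount, against 2360 and 2613, and 8934 and 10606 with no fold threshold. Sparc no longer differed between the models with no filter (adjusted p = 0.0514), median-of-ratios scaling (0.0858) or a replicate block (0.0501). With the replicate block Tnc did (adjusted p = 0.0380), and the DEG counts were 7 and 9, as without it. The labels name nothing that rats with the same number share besides that number. Fbln1 had a difference of -0.61 to 0.035 between the models when a rat was left out. Efemp1 in UUO was -0.54 with median-of-ratios scaling, -0.50 with quantile normalization and -0.24 to 0.18 with a rat left out, and Ccn2 in adenine was -0.48 to 0.054 with a rat left out.

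Of the list counts of DEGs, with a pseudocount of 1 other matricellular genes in adenine had 1, elastic fiber genes 3 in adenine and 6 in UUO, crosslinking genes 3 in UUO and receptors 3 in each. A minimum FPKM of 1 left 1 other matricellular gene in adenine. Median-of-ratios scaling and quantile normalization each left 6 elastic fiber and 3 crosslinking genes in UUO, and quantile normalization left 3 elastic fiber genes in adenine. With no fold threshold the counts in adenine were 9 other matricellular, 15 elastic fiber and 11 receptor genes, and in UUO 18 elastic fiber and 14 receptor genes. With a rat left out, other matricellular counts were 2 to 4 in adenine and 5 to 7 in UUO, and receptor counts 3 to 5 in both. The within-kidney ratios were also run with 2 other pseudocounts chosen after seeing the data. With a pseudocount of 1 Postn to Sparc in adenine moved to 2.02 and Tnc to Fn1 in UUO to 0.063. The cause of these shifts was not tested. Read depth is unknown, and Mfap5 in both undiseased groups and Postn in sham kidneys were too low for a firm fold.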

Other observations

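Among the 64 listed surrounding genes tested in both tables, 3 passed the adjusted p in opposite directions: Fbln5, Adamtsl2 and Mmp9. The matching share over all genes was not calculated, so the count shows nothing particular to these lists. Fbln5 encodes fibulin-5, which is needed to assemble elastic fibers. It was at 33.1, 39.4 and 28.7 FPKM in control and 20.8, 21.8 and 19.99 FPKM in adenine rats, a log2 fold change of -0.68 (adjusted p = 0.00486). In sham rats it was at 34.4, 49.6 and 45.3 FPKM and in UUO rats at 115, 132 and 184 FPKM, a log2 fold change of 1.72 (adjusted p = 0.000385). A link between the changes of Fbln5 and Eln was not tested.

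Mmp9, whose product cleaves gelatin and elastin, was at 8.17, 1.04 and 6.76 FPKM in control and 192, 45.7 and 140 FPKM in adenine rats, a log2 fold change of 4.74 (adjusted p = 0.00335). In sham rats it was at 2.73, 5.15 and 9.29 FPKM and in UUO rats at 1.95, 2.48 and 1.77 FPKM. Adamtsl2 was at 6.65, 3.08 and 3.51 FPKM in control and 1.98, 2.01 and 1.21 FPKM in adenine rats, against 2.56, 3.16 and 5.38 FPKM in sham and 5.87, 10.8 and 20.4 FPKM in UUO rats (log2 fold change 1.60, adjusted p = 0.0201).

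Ccn2, which encodes connective tissue growth factor, a matricellular protein, was at 39.96, 68.5 and 42.9 FPKM in control and 25.4, 48.2 and 53.7 FPKM in adenine rats, a log2 fold change of -0.28 (adjusted p = 0.493). In UUO rats it was at 241, 242 and 240 FPKM against 32.03, 50.4 and 59.0 FPKM in sham rats, a log2 fold change of 2.40 (adjusted p = 0.000110). The 3 UUO rats that lay far apart for Postn and Mfap5 were close together for Ccn2.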
